A study of Canis lupus familiaris with 26 samples.

Results

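The data described here are the difference between corpora lutea (CL) of firocoxib-treated and control bitches that days 5, 10, 20 and 30 after ovulation had in common. All 26 of the 26 RNA-seq libraries of the series were used, 13 from treated and 13 from control animals, and a gene was of interest when its level differed in the same direction on every day. Treated bitches of mixed breed received firocoxib (Previcox), a selective inhibitor of cyclooxygenase 2 (COX2), by mouth at 10 mg/kg daily from the day of ovulation until the ovaries were removed by surgery and the CL collected. Control bitches received a placebo for the same time. Day 5 had 4 control and 4 treated animals, and days 10, 20 and 30 had 3 of each. Each library came from the poly-A RNA of trimmed CL of 1 animal, and no animal served on more than 1 day, so the 4 days shared no sample. Animals found to be outliers by the study had been taken out of its dataset before the counts used here, and their libraries were not analysed here.

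The CL is the gland that forms from the ruptured follicle and secretes progesterone. COX2, encoded by PTGS2, makes the precursor of the prostaglandins, and prostaglandin E synthase (PTGES) converts that precursor to PGE2, which acts through receptors such as PTGER2 and PTGER4 and is known to support the young canine CL. Prostaglandin F2alpha acts through PTGFR and is known for its luteolytic action. Firocoxib blocks the COX2 enzyme and not the transcription of its gene, so the PTGS2 mRNA level is no check of the treatment.

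The libraries held 12831896 to 22658950 reads assigned to genes (median 17909941). Of 19856 genes, 14171 were tested, those whose reads averaged 10 or more in any of the 8 groups, and 4352 of these could be given a symbol. The symbols came from the gene names in the study's lists of changed genes, so each named gene was on such a list for some contrast of these samples, and its appearance here is not independent evidence. In trimmed CL, fewer cells of a type and less RNA per cell cannot be told apart. The luteal genes STAR, CYP11A1 and HSD3B2 had no such pairing of identifier and symbol and were not analysed here. The aromatase gene CYP19A1, also expressed by luteal cells, had a mean of 901 CPM (read counts scaled by the size of each library) in control and 665 CPM in treated animals.

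The library with the highest score of each day on the component described next was set apart, 4 in all. After the mean of each day was subtracted from the log2 CPM values, the first principal component held 56.5% of the variance of 10394 genes with a mean of at least 5 CPM. On each day 1 library had by far the highest score. These were treated dog 1 on day 5 (score 126), treated dog 1 on day 10 (104), treated dog 2 on day 20 (142) and, among the controls, dog 2 on day 30 (55.4). The scores of the other 22 libraries ran from -65.5 to 19. The libraries that stood apart were thus treated on the first 3 days and control on the last.

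**Figure D1:**
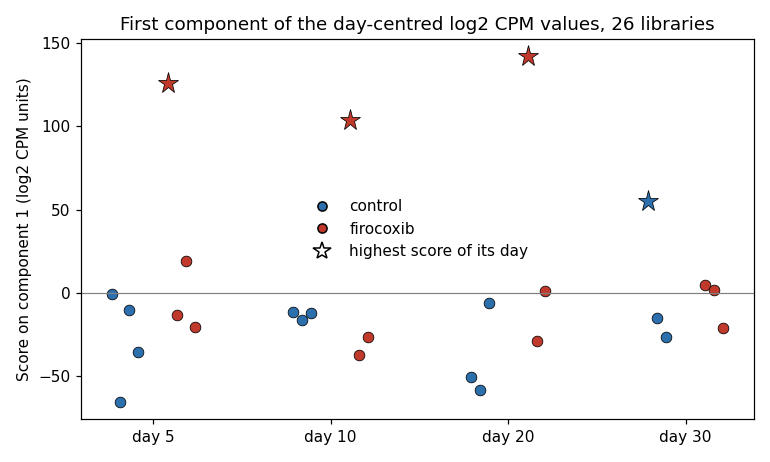
Score of each library on the first principal component of the log2 CPM values after the mean of its day was subtracted (y axis, log2 CPM units), by day (x axis) and treatment (blue, control; red, firocoxib). Stars mark the highest score of each day, which belonged to treated libraries on days 5, 10 and 20 (104 to 142) and to a control library on day 30 (55.4), while the other 22 libraries lay between -65.5 and 19.

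Genes with the highest weights on this component, and thus the highest levels in the 4 libraries, included KLK2, LTBP4, ELN (elastin), PTGDS and the immediate early genes IER2, JUNB and JUND. Those with the lowest included ASPM, ZNF292, AKAP9, GOLGA4 and BAZ2B. The weight of a gene and its treated-over-control log2 fold change shared the same libraries, and across the 10394 genes their Spearman correlation was 0.843 with all 26 libraries, 0.878 without day 30 control dog 2 and 0.485 without the 4 libraries. The part of these 4 libraries in each result was therefore measured by leaving them out, and what set them apart was not tested. This choice was made after the values were seen.

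In the fit with day as a block, no gene passed, that is, none had both a P below 0.01 and a false discovery rate (FDR) below 0.1 (edgeR's quasi-likelihood test, Benjamini-Hochberg adjustment over all genes; 0% of 14171; lowest adjusted p 0.159). At an unadjusted P below 0.05 there were 2838 genes (20.0% of those tested), of which 1642 (11.6%) had the higher and 1196 (8.44%) the lower level in treated CL. At a P below 0.01 there were 606 genes (4.28%), 325 higher (2.29%) and 281 lower (1.98%). On the same counts DESeq2 called 723 genes (5.10%), 495 higher (3.49%) and 228 lower (1.61%), and limma voom called 0. The median log2 fold change over all genes was 0.03.

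This count depended on which of the libraries that stood apart were left out. Leaving out day 30 control dog 2 alone kept the 3 treated ones in the fit. Without day 30 control dog 2, edgeR called 1608 genes (11.3%), 1273 higher (8.98%) and 335 lower (2.36%) in treated CL. Of these, 1299 (9.17% of all tested) had the same direction on all 4 days. Among all genes tested 4922 (34.7%) had 1 direction on all days without this library. The sign count and the call rest on the same samples. With all 4 libraries that stood apart left out, edgeR again called 0 genes (lowest adjusted p 0.194), 1803 genes (12.7%) had an unadjusted P below 0.05, and DESeq2 called 133 (0.939%). Of the 1608 genes called without day 30 control dog 2, all 1608 kept their sign without the 4 libraries and 1059 (65.9%) had an unadjusted P below 0.05 there. The fits share most of their samples, so this overlap is a description.

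A same direction of difference on all 4 days was found for 3034 genes (21.4%), 1355 higher (9.56%) and 1679 lower (11.8%) in treated CL, whatever the size of the difference. Of these, 418 (2.95% of all tested) had a P below 0.01 in the common fit, 208 higher (1.47%) and 210 lower (1.48%), where the sign count and the P rest on the same samples. Without the 4 libraries 1361 genes (9.60%) had 1 direction on all days, and 710 of those were among the 3034 with the same sign. Of the 418 genes, 226 still had the same direction on all 4 days without the 4 libraries.

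Only 1 gene of the 14171 (0.00706%) had treated animals on the same side of all controls on each of the 4 days, without overlap. This gene, ENSCAFG00000009214, had no symbol in the lists used and was named here after its values were seen. On day 5 its levels were 55.6, 70.9, 59.6 and 47.1 CPM in control and 32.6, 31.3, 37.3 and 37.1 CPM in treated animals. On day 10 they were 33.1, 32.2 and 43 CPM against 27.3, 24.1 and 28.2 CPM, and on day 20 they were 54.3, 37.1 and 43.5 CPM against 29.5, 36.6 and 28.1 CPM. On day 30 they were 62.5, 56 and 72.4 CPM in control and 36.1, 32.5 and 53.5 CPM in treated animals. Every treated animal thus lay below every control animal of its day, by a narrow margin on day 20. Its common log2 fold change was -0.60 (SE 0.11, adjusted p = 0.159 by edgeR), a level 1.52-fold lower, and with all 26 libraries it did not pass in edgeR but was called by DESeq2. Within days the log2 fold change was -0.75, -0.44, -0.52 and -0.65 on days 5, 10, 20 and 30, and without the 4 libraries the common value was -0.58 (adjusted p = 0.244 by edgeR), and DESeq2 called it there too.

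Groups that did not overlap on at least 3 days, with the same side each time, were found for 27 genes (0.191%), of which 26 (0.183%) were lower and 1 (0.00706%) was higher in treated CL. Among the 26 were ADGRL2, the inositol phosphatase gene OCRL, ARFGEF2, the cyclin gene CCND2, the organic cation transporter gene SLC22A3 and the stearoyl-CoA desaturase gene SCD, all but ADGRL2 named after their values were seen. SCD, a gene of fatty acid desaturation, had log2 fold changes of -0.69, -1.63 and -0.78 on days 5, 20 and 30 but 0.64 on day 10, where its treated animals lay above the controls. WDCP had the same order of groups, with log2 fold changes of -0.51, 0.14, -0.68 and -0.50 on days 5, 10, 20 and 30, so the groups of SCD and WDCP did not overlap on any day but changed sides on day 10.

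**Figure D2:**
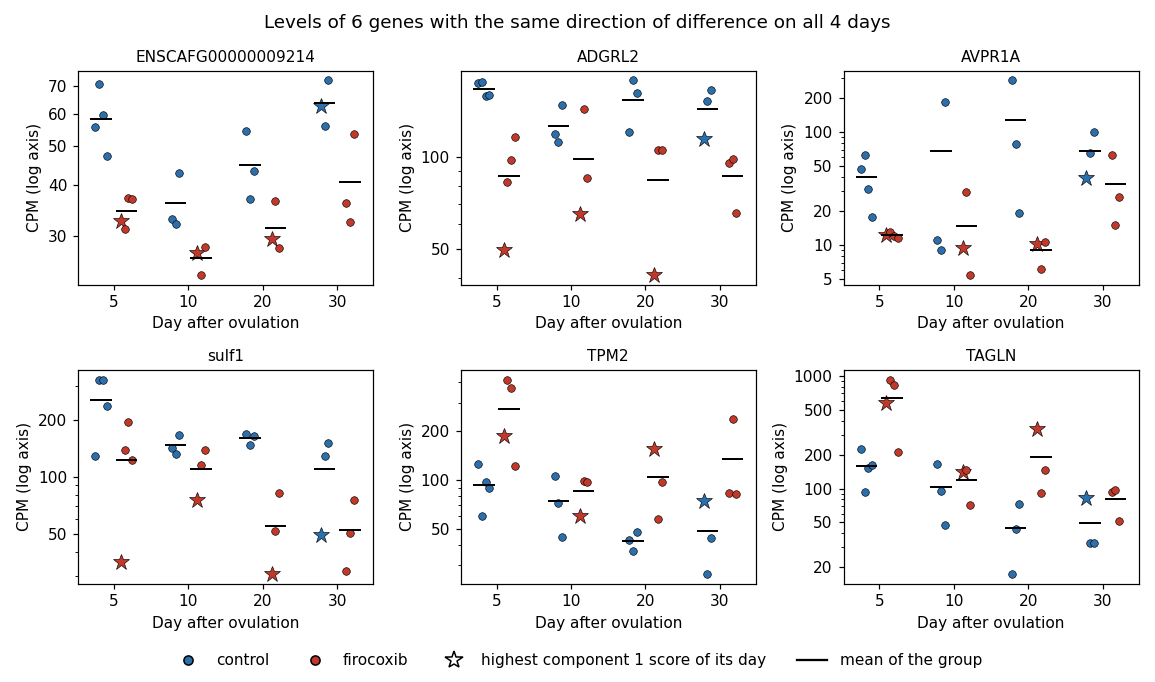
CPM (y axis, log scale) of 6 genes with the same direction of difference on all 4 days, by day after ovulation (x axis) for control (blue) and firocoxib-treated (red) animals. Each point is 1 animal, bars are group means and stars are the 4 libraries with the highest first component score of their day. The treated animals of ENSCAFG00000009214 lie below the controls on all 4 days, while those of the other genes overlap with the controls on at least 1 day.

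The call of the named genes below depended on the tool. In edgeR none passed with all 26 libraries. The 6 in each direction with the smallest P and the same sign on every day had adjusted p-values of 0.222. In edgeR all 12 passed when day 30 control dog 2 was left out (adjusted p = 0.0734), and none passed without the 4 libraries, where their adjusted p-values were 0.244 or higher. DESeq2 called 12 of the 12 with all 26 libraries (adjusted p = 0.00665 to 0.0263) and 11, all but ASS1, without the 4, while limma voom called 0. SE and adjusted p-values below are those of edgeR unless another tool is named. Groups without overlap on a single day were common. Whichever side was higher, they made up 8.43%, 4.88%, 29.8% and 14.4% of all genes tested on days 5, 10, 20 and 30.

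AVPR1A, which encodes the vasopressin V1a receptor, had the largest difference among the 6 genes that were lower in treated CL. On day 5 its levels were 47.7, 62.8, 31.6 and 17.7 CPM in control and 12.4, 13, 12.1 and 11.5 CPM in treated animals, and on day 20 they were 288, 79.1 and 19.3 CPM against 10.3, 6.12 and 10.7 CPM. The groups did not overlap on these days, as was so for 8.43% and 29.8% of all genes tested. On day 10 the controls had 11, 9.13 and 184 CPM and the treated animals 9.47, 29.6 and 5.44 CPM, and on day 30 the values were 39.4, 65.3 and 99.8 CPM against 62.8, 15 and 26.7 CPM. The groups overlapped on both days, and on day 10 the control at 184 CPM lay above all the others. The common log2 fold change was -2.11 (SE 0.49), a level 4.32-fold lower, and without the 4 libraries it was -2.08 (SE 0.58).

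ADGRL2 encodes an adhesion G protein-coupled receptor of the latrophilin family. Its control levels ran from 112 to 178 CPM (median 158) and its treated levels from 41 to 144 CPM (median 95.6). The groups overlapped on day 10 alone, through 1 treated animal at 144 CPM. The common log2 fold change was -0.75 (SE 0.17), and it was -0.58 without the 4 libraries (SE 0.13), where day 10 gave -0.09. The lowest values on days 5, 10 and 20, at 49.5, 65 and 41 CPM, were those of the libraries that stood apart.

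The heparan sulfate endosulfatase gene SULF1 (listed as sulf1) had a median of 150 CPM in control and 75.6 CPM in treated animals. Its log2 fold change was -1.02 (SE 0.24), with values of -1.04, -0.42, -1.54 and -1.06 on days 5, 10, 20 and 30. On day 20 the controls had 168, 147 and 163 CPM and the treated animals 30.6, 51.6 and 82.2 CPM. These groups did not overlap, as was so for 29.8% of all genes tested on day 20, and they overlapped on the other days. PIK3R3, a regulatory subunit of phosphatidylinositol 3-kinase, had a log2 fold change of -0.97 (SE 0.23), and TMEM26, a transmembrane protein gene, had -1.0 (SE 0.22). ADAM18 was near the lower limit of detection, with 0.235 to 5.17 CPM in control and 0 to 0.933 CPM in treated animals, and its log2 fold change was -1.92 (SE 0.47). Without the 4 libraries these genes had log2 fold changes of -0.87, -0.80, -0.92 and -1.66, in that order.

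The 6 genes with the higher level in treated CL began with 2 genes of the contractile apparatus. TPM2 (beta-tropomyosin) had a common log2 fold change of 1.17 (SE 0.26), a 2.25-fold higher level. On day 5 its levels were 125, 60.6, 97.7 and 89.7 CPM in control and 186, 415, 370 and 122 CPM in treated animals, and 1 treated animal lay just below the highest control. On day 20 the values were 43.1, 36.6 and 47.8 CPM against 156, 58 and 98.2 CPM, and on day 30 they were 75, 26.5 and 44.1 CPM against 83.1, 239 and 82.6 CPM. The groups did not overlap on days 20 and 30, as was so for 29.8% and 14.4% of all genes tested. On day 10 they did, with 106, 72.1 and 45 CPM in control and 60.5, 98.9 and 97.3 CPM in treated animals. Without the 4 libraries the log2 fold change of TPM2 was 1.3 (SE 0.26).

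TAGLN (transgelin, SM22), an actin-binding protein of smooth muscle, had a median of 82.3 CPM in control and 147 CPM in treated animals. Its log2 fold change was 1.32 (SE 0.33), and 1.35 without the 4 libraries (SE 0.32). It reached 2.01 on day 5 and 2.11 on day 20 but 0.22 on day 10 and 0.70 on day 30. On day 20, when 29.8% of all genes tested did not overlap, the treated animals had 338, 90.6 and 147 CPM. They lay above the controls, at 17.4, 43.4 and 72.9 CPM, and the groups overlapped on the other days.

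The other 4 genes were of mixed function. TTC7A, a scaffold for a lipid kinase complex, was the most even across days, with log2 fold changes of 0.85, 0.58, 0.50 and 0.60 and a common value of 0.65 (SE 0.16). Its groups nevertheless overlapped on every day. MAFF, a small MAF transcription factor, had a common value of 1.26 (SE 0.31) but 0.09 on day 10 and 2.84 on day 20, and PXDC1 had 1.12 (SE 0.28) with 0.15 on day 10 and 2.39 on day 20. ASS1 (argininosuccinate synthase, a urea cycle enzyme) had a log2 fold change of 1.48 (SE 0.37) with all libraries and 0.88 without the 4 libraries. In that fit the day 10 sign of ASS1 (-0.15) and of MAFF (-0.13) turned, so that their direction was no longer the same on every day.

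**Figure D3:**
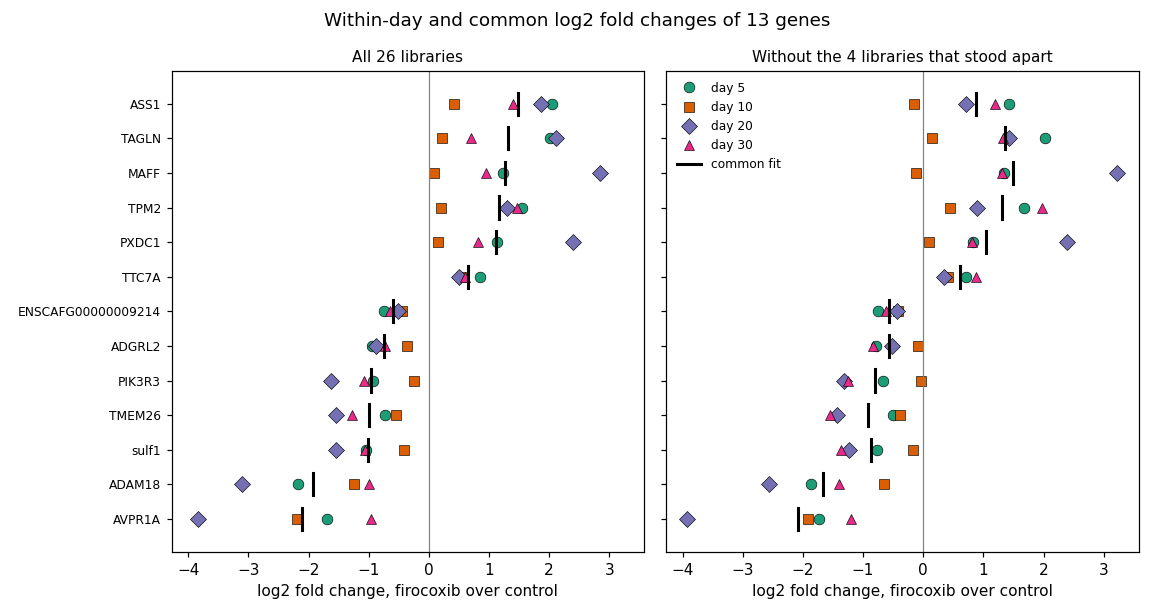
Log2 fold change of firocoxib over control (x axis) within each day (symbols) and in the common fit (black bars) for ENSCAFG00000009214 and the 12 named genes with the smallest P in each direction, with all 26 libraries (left) and without the 4 libraries that stood apart (right). With all libraries each gene keeps 1 sign on the 4 days, whereas without the 4 libraries ASS1 and MAFF lie below 0 on day 10.

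Among the lists with several genes tested, the smooth muscle and contractile list had the largest share of genes at a small P. Of its 16 genes 11 were tested, all 11 had a positive common log2 fold change (median 1.0, against 0.03 over all genes), and 9 had an unadjusted P below 0.05, all with the higher level in treated CL. Among the genes with a symbol 27.5% reached that P, 15.3% with the higher level. Besides TPM2 and TAGLN, MYL9 (myosin regulatory light chain) had 0.88 (SE 0.22), ACTG2 (enteric smooth muscle actin) 1.44 (SE 0.42), CNN1 (calponin) 1.66 (SE 0.50), FLNA (filamin A) 1.0 (SE 0.32) and ACTA2 (smooth muscle actin) 1.08 (SE 0.38). With all libraries edgeR called none, whereas DESeq2 called 8 of the 11, all higher, against 9.77% of the genes with a symbol. Without day 30 control dog 2 edgeR called 8 of the 11, all higher, when 13.5% of all genes with a symbol were called. Without the 4 libraries 10 of the 11 had an unadjusted P below 0.05, against 19.5% of the genes with a symbol, the median was 0.97 and DESeq2 called 6.

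The median log2 fold changes of the contractile genes were 1.89, 0.19, 1.29 and 0.13 on days 5, 10, 20 and 30. None passed the edgeR test of treatment by day, and 4 of the 11 had an unadjusted P below 0.05 in it, against 8.82% of all genes. The summed level of the list was 768 to 1428 CPM in control and 1640 to 5804 CPM in treated animals on day 5, and 493 to 871 CPM against 1164 to 2438 CPM on day 20. On both days the groups did not overlap, as was so for 8.43% and 29.8% of single genes tested on days 5 and 20. It was 610 to 1249 CPM against 829 to 1338 CPM on day 10 and 604 to 1147 CPM against 636 to 1216 CPM on day 30, where the groups overlapped. Only 5 of the 11 genes had the same direction on all 4 days. These genes mark smooth muscle and pericytes of vessels as well as contractile stroma, and whether the share of such cells differed between the groups was not tested.

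Leukocyte markers were few, since 4 of 18 were tested. LAPTM5, a lysosomal protein of haematopoietic cells, had a log2 fold change of 0.59 (SE 0.19). TYROBP, a signalling adaptor of myeloid and natural killer cells, had 0.66 (SE 0.24). Both had an unadjusted P below 0.05 (50% of the list, against 27.5% of the genes with a symbol). DESeq2 called both, against 9.77% of the genes with a symbol. LAPTM5 had the same direction on every day, although its day 30 value was 0.08, and TYROBP had -0.20 on day 10. Without day 30 control dog 2 LAPTM5, TYROBP and CD68, a macrophage marker, were called, when 13.5% of all genes with a symbol were. AIF1, the last of the 4, was not called there. With all libraries it had 0.10 (SE 0.17), and -0.49 on day 10. The summed level of the 4 markers was 113 to 214 CPM in control and 162 to 489 CPM in treated animals on day 5, and 53.7 to 81.7 CPM against 71.9 to 128 CPM on day 20, with overlap on each day.

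Of the 12 fibroblast and matrix genes tested, COL1A1 had a log2 fold change of 0.62 (SE 0.28) and COL6A1 of 0.65 (SE 0.31), both with a P below 0.05, which is 16.7% of the list against 27.5% of the genes with a symbol. Both encode collagen chains, and both were negative on day 30 (-0.18 and -0.57). The median of the list was 0.10, and 7 of the 12 had a positive value. LUM (-0.59, SE 0.34) and TIMP1 (-0.30, SE 0.39) were among those with a negative one. COL1A1 and COL6A1 were the only 2 of the 12 called without day 30 control dog 2, when 13.5% of all genes with a symbol were called.

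Most cytosolic ribosomal protein genes had a positive common log2 fold change. Of 58 tested, 57 had a positive log2 fold change (median 0.53) and 43 had a P below 0.05, all with the higher level in treated CL (74.1%, against 15.3% of the genes with a symbol). With all libraries edgeR called 0 and DESeq2 called 33, against 9.77% of the genes with a symbol. Without day 30 control dog 2 edgeR called 26, all higher, when 13.5% of all genes with a symbol were called. Without the 4 libraries DESeq2 called 1, while 37 of the 58 had an unadjusted P below 0.05 in edgeR, all with the higher level. In that fit 19.5% of the genes with a symbol had such a P, and the median of the list was 0.46. The within-day medians did not share 1 direction. The median was 0.41, -0.26, 1.43 and 0.58 on days 5, 10, 20 and 30, and 4 of the 58 had the same direction throughout. None passed the edgeR test of treatment by day, but 40 of the 58 had an unadjusted P below 0.05 in it, against 8.82% of all genes. RPL3, with 395 to 1590 CPM in control and 922 to 2221 CPM in treated animals, had a log2 fold change of 0.65 (SE 0.20) and -0.14 on day 10. Ribosomal protein genes have near-identical copies that can share reads, so values of single members are uncertain.

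In the 14 respiratory chain genes tested the median was 0.36 with all libraries and 0.13 without the 4 libraries. Of them 3 had a P below 0.05 with the higher level in treated CL, among them NDUFB9 and ATP5D, and NDUFS1, a subunit of complex I, had one with the lower level, together 28.6% of the list and near the 27.5% of the genes with a symbol. NDUFB9, an accessory subunit of complex I, had 0.46 (SE 0.16) in the common fit and the same direction on every day with all libraries. Without the 4 libraries its day 10 value was -0.024.

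**Figure D4:**
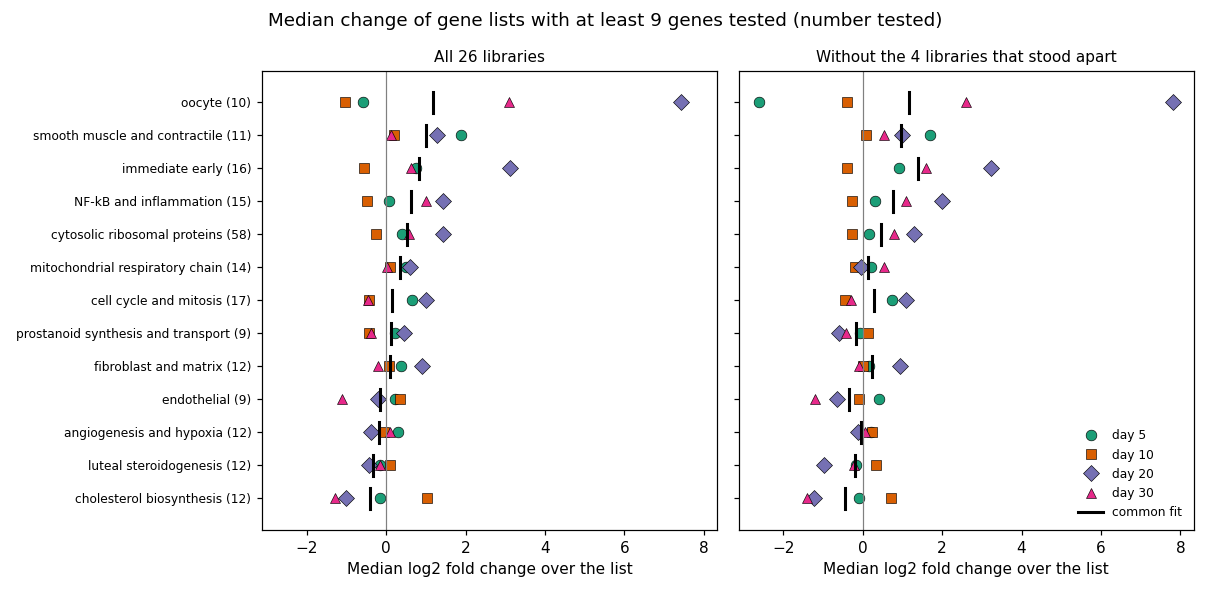
Median log2 fold change of firocoxib over control (x axis) over the tested genes of 13 lists (y axis, number tested in brackets), within each day (symbols) and in the common fit (black bars), with all 26 libraries (left) and without the 4 libraries that stood apart (right). With all libraries the contractile and respiratory chain lists have medians above 0 on all 4 days, but the respiratory chain medians of days 10 and 20 lie below 0 without the 4 libraries.

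Among the genes of the prostaglandin system, none of the 9 genes of synthesis and transport tested had a P below 0.05, and the median log2 fold change was 0.11. PTGS2 had 3 to 339 CPM in control (median 58.6) and 2.9 to 155 CPM in treated animals (median 30.6), with a log2 fold change of -0.47 (SE 0.47, adjusted p = 0.504). Its within-day values were -1.23, -0.43, 0.47 and -0.43, and the groups overlapped on every day. PTGES had a log2 fold change of -0.19 (SE 0.29, adjusted p = 0.657), and the prostaglandin D synthase gene PTGDS had 1.13 (SE 0.56, adjusted p = 0.253) with -0.97 on day 10 and 3.15 on day 20.

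Of the 5 prostanoid receptor genes tested PTGFR had the smallest P. Its level ran from 352 to 2985 CPM in control and from 54.5 to 1946 CPM in treated animals, and the common log2 fold change was -1.10 (SE 0.38, adjusted p = 0.222). Its within-day log2 fold changes, in order of day, were -1.44, -0.22, -2.66 and -0.05, all of the same sign. DESeq2 called it with all libraries (adjusted p = 0.0774) but not without the 4. On day 20 the controls had 2432, 2985 and 1952 CPM and the treated animals 218, 54.5 and 896 CPM. These groups did not overlap, as was so for 29.8% of all genes tested on that day. PTGFR passed in edgeR without day 30 control dog 2 (adjusted p = 0.0766) and had -0.88 without the 4 libraries (SE 0.39), where its day 10 value was 0.23. The PGE2 receptor PTGER4 had 0.66 (SE 0.33, adjusted p = 0.26) with 2.19 on day 20, and PTGER2, at a median of 1.08 CPM in control and 0.855 CPM in treated animals, had 0.11 (SE 0.37, adjusted p = 0.849).

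The genes of steroid hormone production gave 3 of 12 with a P below 0.05, all with the lower level in treated CL. That is 25% of the list, near the 27.5% of all genes with a symbol at that P (12.2% with the lower level), and neither edgeR nor DESeq2 called any of the 12. The 3 were HSD17B12 (-0.75, SE 0.29), a hydroxysteroid dehydrogenase gene, NR5A2 (-0.66, SE 0.30), a nuclear receptor that drives steroidogenic genes, and the prolactin receptor PRLR (-0.45, SE 0.21). Their day 20 values were -2.03, -2.19 and -1.38, whereas those of NR5A2 and PRLR were 0.23 and 0.07 on day 10. None of these 3 had a P below 0.05 without the 4 libraries. The LH receptor gene LHCGR had -0.33 (SE 0.29, adjusted p = 0.453) and CYP19A1 had -0.47 (SE 0.34).

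The within-day medians of the cholesterol biosynthesis genes differed in sign. CYP51A1 (-0.88, SE 0.33), STARD4 (-0.70, SE 0.28), a sterol carrier, and SC5D (-0.70, SE 0.34) had a P below 0.05 (25% of the list, near the 27.5% of the genes with a symbol), and the median of the 12 genes tested was -0.40. The medians on days 5, 10, 20 and 30 were -0.16, 1.02, -1.0 and -1.28. None of the 12 had the same direction on all 4 days and none was called without day 30 control dog 2. CYP51A1, a sterol demethylase, had log2 fold changes of -0.47, 0.24, -1.99 and -1.43 on days 5, 10, 20 and 30.

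Immediate early and inflammatory genes had their highest within-day medians on day 20. All 16 immediate early genes tested had a positive common log2 fold change (median 0.83), but only ATF3 (1.01, SE 0.36), JUND (1.21, SE 0.48) and FOSL2 (0.59, SE 0.25) had a P below 0.05 (18.8%, below the 27.5% of the genes with a symbol), and none had the same direction on all 4 days. DESeq2 called ATF3 and JUND, 2 of the 16, against 9.77% of the genes with a symbol. The medians on days 5, 10, 20 and 30 were 0.75, -0.55, 3.13 and 0.62. Without the 4 libraries the common median was 1.40 and 14 of the 16 had a P below 0.05 (19.5% of the genes with a symbol). The day 10 median was -0.385 there. Without day 30 control dog 2 alone ATF3, JUND, FOSL2, JUNB and IER2 were called, when 13.5% of all genes with a symbol were. Of 15 NF-kB and inflammation genes 11 had a positive common value. CXCL8 (-1.37, SE 0.74) and VCAM1 (-0.07, SE 0.31) were among those with a negative one. ICAM1 (1.46, SE 0.47), NFKBIA (0.63, SE 0.28), SELE (1.58, SE 0.73) and SOCS3 (0.99, SE 0.47) had a P below 0.05 (26.7%, near the share of the genes with a symbol). Their day 20 values were 4.00, 1.97, 4.88 and 3.28, and ICAM1 had -0.15 on day 10.

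Cell cycle genes with a P below 0.05 were the helicase subunits MCM7 (0.62, SE 0.20), MCM5 (1.0, SE 0.36), MCM2 (0.73, SE 0.30) and MCM3 (0.37, SE 0.17) and the kinase AURKB (0.86, SE 0.28), out of 17 tested with a median of 0.15. This is 29.4% of the list, near the 27.5% of the genes with a symbol. Except for MCM3, which had -0.22 on day 30, each was negative on day 10, and MCM2 was also negative on day 30 (-0.15). In the angiogenesis and hypoxia list CA9 (0.88, SE 0.35) and THBS1 (0.91, SE 0.40) had the higher and the endothelin receptor EDNRB (-1.01, SE 0.44) the lower level, out of 12 tested (25%). FLT1, a receptor for VEGF, was the only one of 9 endothelial genes with a P below 0.05 (-0.55, SE 0.24, 11.1% of the list). PECAM1 had -0.40 (SE 0.24), while 4 of the 9 had a positive value, among them ENG (0.52, SE 0.31) and VWF (0.28, SE 0.35). The median of the endothelial genes was -0.15 in the common fit, 0.23 on day 5 and -1.10 on day 30.

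HERC6 was the only one of 18 interferon response genes tested and had -1.07 (SE 0.36) with 0.37 on day 10. Of 3 unfolded protein and heat shock genes, ATF4, a transcription factor of the stress response, had a common value of 0.43 (SE 0.15). With all libraries ATF4 had the same direction on every day (0.21, 0.29, 0.89 and 0.42). Without the 4 libraries it had -0.025 on day 5 and 0.038 on day 10, so its direction was no longer the same throughout. PDIA4 had a common value of 0.34 (SE 0.17). The follicular genes FSHR (-0.46, SE 0.27) and INHBB (0.38, SE 0.40) did not reach a P of 0.05.

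Oocyte markers differed in level between treated and control animals on day 20. The summed level of the 10 genes tested was 5.65 to 9.56 CPM in control and 176 to 317 CPM in treated animals on day 20. These sums did not overlap, as was so for 29.8% of single genes tested on that day. On the other days it ran from 4.67 to 135 CPM in control and from 4.7 to 176 CPM in treated animals, with overlap. Their median common log2 fold change was 1.17, none had a P below 0.05, and GDF9, an oocyte growth factor, had 0.98 (SE 0.60) and the germ cell helicase DDX4 had 1.80 (SE 1.12). The part of follicular tissue in the day 20 differences of the other genes was not tested.

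How far 1 day carried to another was measured in samples that had not chosen the genes. The common fit was made on 3 days, and the direction of the genes was read on the left-out day. Of the 200 genes with the smallest P on the other 3 days, 86.5% had the same direction on day 5, against 77.2% of all genes tested, and 80% on day 20, against 75.3%. On day 10 the share was 40.5% against 63%, and on day 30 it was 32.5% against 45.4%. The share of the ranked genes thus lay above that of all genes on days 5 and 20 and below it on days 10 and 30. No test was run on these shares, since genes are not independent.

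**Figure D5:**
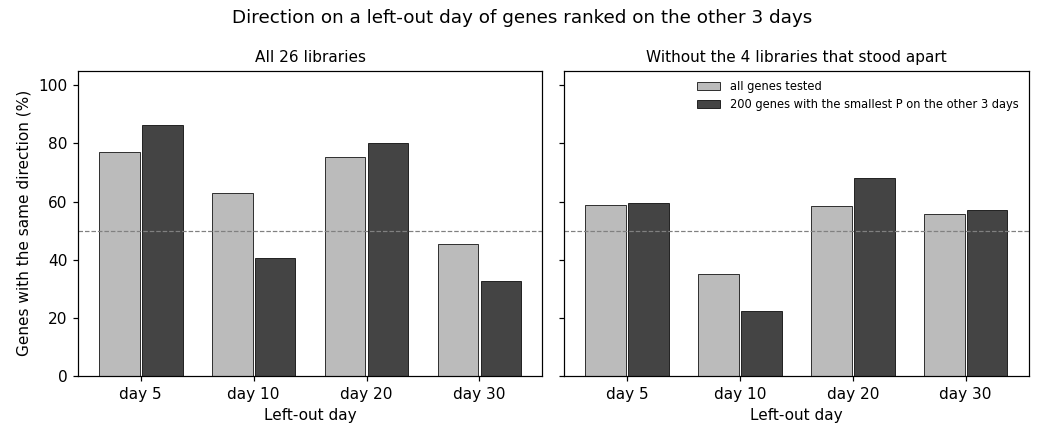
Share of genes (y axis, percent) whose direction on the left-out day (x axis) was that of the common fit on the other 3 days, for all genes tested (light bars) and for the 200 genes with the smallest P (dark bars), with all 26 libraries (left) and without the 4 libraries that stood apart (right). With all libraries the dark bars stand at 86.5% and 80% for days 5 and 20 but at 40.5% and 32.5% for days 10 and 30, and without the 4 libraries the day 10 share falls to 22.5% while that of day 30 is 57%. The dashed line marks 50%.

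These shares were different without the libraries that stood apart. Without them the 200 genes had the same direction in 59.5%, 22.5%, 68% and 57% of cases on days 5, 10, 20 and 30, against 58.7%, 34.9%, 58.4% and 55.7% of all genes. The Spearman correlation across the 14171 genes of the within-day log2 fold changes was 0.61 between days 5 and 20 with all libraries and 0.23 without the 4. Between days 5 and 10 it was 0.37 and -0.27, and between days 20 and 30 it was 0.02 and 0.20. Day 10 was negatively related to each of the other days without the 4 libraries, at -0.27, -0.24 and -0.23.

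Each day was also fitted alone. No gene had an unadjusted P below 0.05 and the same direction on all 4 days among 12844 genes tested on each, and 6 had this on 3 days. These 6, seen only after the fit, included TPM2, NKD1 (an inhibitor of WNT signalling), SLC6A17 and 2 genes without a symbol. All 6 had the higher level in treated CL on days 5, 20 and 30, and none reached a P of 0.05 on day 10. Across the single days edgeR called 0, 0, 14 and 0 genes on days 5, 10, 20 and 30, with 1609, 121, 2338 and 1074 genes at an unadjusted P below 0.05, and DESeq2 called 100, 0, 1479 and 116.

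Whether the effect differed between the days was tested by the interaction of treatment and day. No gene passed (edgeR; 0% of 14171), 1250 (8.82%) had an unadjusted P below 0.05, and the DESeq2 likelihood ratio test called 244 (1.72%). The 5 named genes with the smallest interaction P were CUX2, C6orf52, KIF5C, EYA1 and DCHS1, with adjusted p-values of 0.415. CUX2, a homeobox gene, had log2 fold changes of -2.10, -0.89, 3.72 and 0.42 on days 5, 10, 20 and 30, and KIF5C, a kinesin motor, had -0.51, 0.45, -2.71 and -0.17. Of the 12 genes above, PXDC1 and MAFF had an unadjusted interaction P below 0.05 (adjusted p = 0.497 and 0.415). A P that misses the threshold does not show that the days were alike.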

How the data were processed

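The authors deposited 1 table of raw read counts per gene for each of 26 libraries (13 firocoxib-treated, 13 control). Per the labels, the libraries were poly-A selected, the aligner was STAR, the genome build CanFam3.1 and the counter featureCounts (versions not given in the sources used here). The kit does not mark strand. A gene was kept when its reads averaged 10 or more in any of the 8 groups. The common effect was fitted with edgeR 4.0.16 (R 4.3.3, TMM factors, quasi-likelihood test, day as a block), and the within-day changes and the interaction with a fit of the 8 groups. A gene was called at a P below 0.01 together with an FDR below 0.1, as in the study. CPM values were scaled by TMM factors. Log2 fold changes are treated over control. DESeq2 1.42.0, limma 3.58.1, other filters and left-out libraries and days were alternatives. The scripts were tested on simulated counts with a capped spread, where only genes with many reads were changed. There edgeR recovered 100% of genes with a common log2 change of 1.5. Its interaction test recovered 43.5% of genes with a log2 change of 2 on day 20 alone, so it can miss such genes.

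Symbols came from the identifier and name columns of the study's supplementary lists (4355 of 19856 genes). These lists also hold the authors' own fold changes and p-values, which were not used. Named genes were the 6 with a symbol, the smallest P and the same direction on every day in each direction, a set of prostaglandin and luteal genes, the 2 of each gene list with the smallest P, and the 5 with the smallest interaction P, except that some genes are not reported here. Other members of the lists, most of them with an unadjusted P below 0.05, were named after their values were seen. The members, the gene lists and the tests were chosen with earlier results of these data known. Where nothing in the labels describes the animals of a group further, p-values measure the spread between these samples. No sequence is shown, as no genome or sequence table was used here.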

Additional observations from a re-analysis of the deposited data

Results flagged for a closer look

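Among 110 groups of 4 animals on day 5 (55 named genes, control and treated), 7 held 1 value far from the other 3, where chance gives about 1 in 20 groups. In treated dog 1, which also stood apart on the first component, COL6A1 had 1700 CPM against 616 to 751 CPM, GDF9 21 CPM against 2.05 to 2.72 CPM and DDX4 0.713 CPM against 0 to 0.103 CPM in the other treated animals. ATF3 had 180 CPM in treated dog 4 against 31.9 to 51.9 CPM, and PTGER2 had 5.55 CPM in treated dog 2 against 0.769 to 1.2 CPM. Among the controls C6orf52 had 2.51 CPM in dog 1 against 0.444 to 0.782 CPM, and MAFF had 8.69 CPM in dog 5 against 13.9 to 14.6 CPM.

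For 2 of these 55 genes every treated animal lay on 1 side of every control on some days and on the other side on another day. C6orf52 had a log2 fold change of -1.79 on day 10 and 3.29 on day 20 (interaction adjusted p = 0.415 by edgeR). DCHS1, a protocadherin gene, had 1.35 on day 5, 2.06 on day 20 and -1.37 on day 30 (interaction adjusted p = 0.415). Neither passed the interaction test. Of the genes named after their values were seen, SCD and WDCP lay below the controls on 3 days and above them on day 10. SCD had -0.69, 0.64, -1.63 and -0.78 on days 5, 10, 20 and 30 (interaction adjusted p = 0.472), and WDCP had -0.51, 0.14, -0.68 and -0.50 (interaction adjusted p = 0.623).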

How the results depend on the processing

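The count of genes called for the common effect (0 with edgeR) remained 0 with limma voom, RLE factors, no filter, filterByExpr, FDR < 0.05 alone, and without day 5, 20 or 30. DESeq2 called 723 and, without its filtering and Cook cutoffs, 695, of which 464 and 463 had the same direction on every day. Without day 10 the count was 1 (1 with the same direction). Leaving out 1 library at a time gave 0 to 1608 (0 to 1299 with the same direction), above 1 only without day 30 control dog 2 and equal to 1 without treated dog 5 of day 5 or of day 30. With the 4 libraries left out DESeq2 called 133 (88 with the same direction). The cause of the difference between the tools was not tested.

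The interaction count (0) was 244 and 245 with the 2 DESeq2 settings, 2 and 1456 (edgeR, DESeq2) without the 4 libraries, and 0 each time 1 library was left out. The 2 genes were ENSCAFG00000000638 and BLK, named after their values were seen.

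The sample names do not say whether animals of a day that share a number were linked in any way. The deviations of the 8 same-numbered pairs had a mean correlation of -0.09 (-0.49 to 0.61), and 2 of 8 were above 0.1. Those of the 35 other pairs had a mean of 0.02 (-0.713 to 0.644). So few pairs with so wide a range cannot decide whether the number marked a link. With the replicate block 0 genes were called, 0 with the same direction.

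For the left-out day, the share of 200 genes on days 5, 10, 20 and 30 (86.5%, 40.5%, 80% and 32.5%) was 59.5%, 22.5%, 68% and 57% without the 4 libraries. It was 85.4% on day 20 with 500 genes, 40% on day 30 with 100 genes, and 0% on day 10 for the 1 gene called on the other days. Genes with a P below 0.05 on at least 3 days (6) numbered 16 with DESeq2, 21 in the fit of the 8 groups and 47 in that fit without the 4 libraries.

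Of 896 values of named genes under other settings, 808 kept their direction and their side of the thresholds, 74 kept their direction and newly passed, and 14 changed sign, all in genes that did not pass. PTGER2 had -0.29 with the replicate block, -0.18 without day 20 and -0.22 at the lowest with 1 library left out. CUX2 had 0.27 with voom, 1.06 without day 5, 0.34 without day 10, 0.31 and 0.26 without the 4 libraries (edgeR, DESeq2) and -0.35 to 0.15 with 1 library left out. Without day 20, FSHR had 0.0062, INHBB -0.17, C6orf52 -0.018 and EYA1 -0.070, and EYA1 had -0.11 without day 30. Genes near or below 1 CPM, such as ADAM18, rested on few reads at these depths.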
